A study of Mus musculus with 48 samples.

Results

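The genes described here are 34 type I interferon stimulated genes, taken by symbol from a fixed list and found in a count table of 55486 gene identifiers, where each symbol matched. They were measured by bulk RNA sequencing in a mouse study of QPCTL, a glutaminyl cyclase of the Golgi that modifies the first residue of proteins on their way to the cell surface. The series has 48 samples in 5 groups. The groups used for counts are 12 samples of CD45-negative tumour cells, 8 of bone marrow and 8 of spleen.

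CD45-negative cells were sorted from B16F10 tumours, a mouse melanoma line, 14 days after inoculation. Of these 12 samples, 6 came from homozygous QPCTL-KO mice carrying QPCTL-KO B16F10 cells and 6 from wild-type littermates carrying QPCTL-WT B16F10 cells, so host and tumour genotype always changed together. Bone marrow and spleen came from mice that had received no tumour, aged 10 to 15 weeks, with 4 homozygous QPCTL-KO and 4 wild-type littermates for each organ. All mice belong to the QPCTL-KO C57/Bl6JR strain. The count columns are named by tissue and number only, so these 28 libraries were grouped by tissue, and each tissue pools the genotypes in equal numbers. The 20 lymph node columns do not tell tumour-bearing from baseline animals and are not analysed here.

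Type I interferons are secreted proteins that act on one shared receptor, which signals through the kinases Jak1 and Tyk2 to a complex that holds Stat2 and Irf9. This complex binds interferon stimulated response elements in promoters and switches on genes that sense viral nucleic acids, block viral replication or damp the response. Many of these genes are also kept at a low resting level in leukocytes, and in tumours they are read as a sign of interferon exposure.

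The response element that this complex reads was searched for as GAAA, any 2 bases and GAAA again, on both strands, from 250 bases before to 50 bases after each annotated start (RefSeq promoters, GRCm38.p6). Windows were found for 24 of the 34 genes, and 12 of those 24 (50%) held the motif, against 3.99% of 27025 genes. A match is a description of letters and not a measured binding site. Of the genes whose counts are described in detail, 6 windows of 30 bases upstream of the start are shown with the motif in capitals, as examples of the element in the genes that hold it. On the other strand it reads TTTC, 2 bases, TTTC.
Isg15: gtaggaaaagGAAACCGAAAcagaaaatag
Bst2: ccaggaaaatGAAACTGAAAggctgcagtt
Oas3: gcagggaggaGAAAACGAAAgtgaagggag
Stat2: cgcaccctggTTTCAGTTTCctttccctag
Rsad2: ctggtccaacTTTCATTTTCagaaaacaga
Ifit3: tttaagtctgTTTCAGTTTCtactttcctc
These lie at chr4:156200871-156200900 (minus strand, Isg15), chr8:71537577-71537606 (minus, Bst2), chr5:120777715-120777744 (minus, Oas3), chr10:128270266-128270295 (plus, Stat2), chr12:26456553-26456582 (minus, Rsad2) and chr19:34583397-34583426 (plus, Ifit3). In Isg15, Bst2 and Ifit3 the window is one of several matches, and those of Isg15 and of Bst2 overlap each other. The Ifit3b promoter holds the same 30 letters as the Ifit3 window, at chr19:34607793-34607822. Irf7, Irf9, Trim25, Ifit2, Oasl1, Oasl2, Cmpk2, Isg20, Dtx3l, Ifi44, Ifi35 and Xaf1 had a window without this string, which says nothing of other forms of the element.

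The deposited counts per library were few. Library totals ran between 54117 and 510363 counts in tumour cells, 227240 and 637985 in bone marrow and 219229 and 626316 in spleen. The labels give an average of 18000000 reads per sample, and why so few were counted on genes was not tested. Between 61.2% and 83.8% of each library's counts fell on the 9.01% of identifiers that share at least 50 exonic bases with a coding gene on the other strand. The light-strand mitochondrial gene mt-Nd6 exceeded the sum of 7 heavy-strand mitochondrial mRNAs in 27 of 28 libraries. The kit keeps strand, and the strand setting of the counting is not given in the sources used here, so whether counts of a gene come from its own transcript or from the other strand was not settled. Of the 34 genes, 32 have no such overlap at that minimum. The exceptions are Parp9 and Dtx3l, which share 458 exonic bases with each other. Smaller or non-coding overlaps on the other strand exist for Dhx58, Irf7, Usp18, Oasl1, Eif2ak2 and Ifi35. Qpctl itself had 5.52 to 29.1 CPM (counts per 1000000 of the library total, scaled by edgeR's TMM factors) in tumour cells, 11.02 to 31.4 in bone marrow and 10.8 to 54 in spleen, pooled over genotypes.

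Cell markers set the tissues apart as labelled. In tumour cells Ptprc, the gene of CD45, and the B cell and NK cell markers had no count in any of the 12 libraries, and 6 melanoma markers summed to 1857 to 5648 CPM. Of 5 T cell markers in tumour cells, Cd3d, Cd3e and Cd3g had 0 counts, Cd8a 1 and Cd4 22, and the sums of 0 to 22.1 CPM overlapped the 2.76 to 17.7 CPM of bone marrow. Of 6 macrophage markers in tumour cells, Adgre1 and C1qb had 0 counts, C1qa 1, Cd68 20 and Siglec1 60, while Csf1r ran between 223 and 694 CPM, against 343 to 564 CPM in spleen. In bone marrow 8 monocyte and neutrophil markers summed to 14368 to 30772 CPM, against 32.3 to 1543 CPM in spleen. B cell markers summed to 41.3 to 199 CPM in bone marrow and 98.6 to 1045 CPM in spleen. The 2 spleen libraries numbered 5 and 6 stood apart. They had the highest sums of 6 erythroid markers, 5912 and 6746 CPM, against at most 1490 CPM in the other 6 spleens, and the lowest Ptprc, 108 and 71.0 CPM. Their monocyte and neutrophil sums, 659 and 1543 CPM, were also above the other 6, which had at most 496 CPM. Calls of the 34 genes that changed without these 2 libraries are given beside the result, a choice made after seeing the data.

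Of the 34 genes, 9 to 27 had a count in a tumour cell library, 27 to 32 in a bone marrow library and 21 to 33 in a spleen library. Their summed level was 180 to 436 CPM (median 337) in tumour cells, 420 to 601 (median 468) in bone marrow and 463 to 951 (median 631) in spleen. The sums in spleen were 463 to 668 CPM (median 591) without libraries 5 and 6. With CPM computed over only those counts that fall on genes without opposite-strand coding exons, the sums were 320 to 1234 (median 790), 1180 to 1782 (median 1277) and 1455 to 2746 (median 1747) in the same tissues. In bulk samples, fewer expressing cells and less RNA per cell cannot be told apart. Per kilobase of exon the highest mean levels were those of Parp9 (16.2 CPM per kb), Bst2 (14.0) and Ifi35 (12.1) in tumour cells, of Parp9 (16.02) and Bst2 (13.8) in bone marrow, and of Ifi27l2a (48.6), Bst2 (26.9), Isg15 (26.2) and Isg20 (25.1) in spleen. Without spleen libraries 5 and 6, Isg15 had 6.91 and Isg20 9.44 CPM per kb there, below Parp9 at 16.6. Parp9 shares 458 exonic bases with Dtx3l on the other strand, and Ifi35 shares 290 with Gm11626. Whether their counts come from their own transcripts was not settled, so their ranks may not be those of the transcripts.

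**Figure D1:**
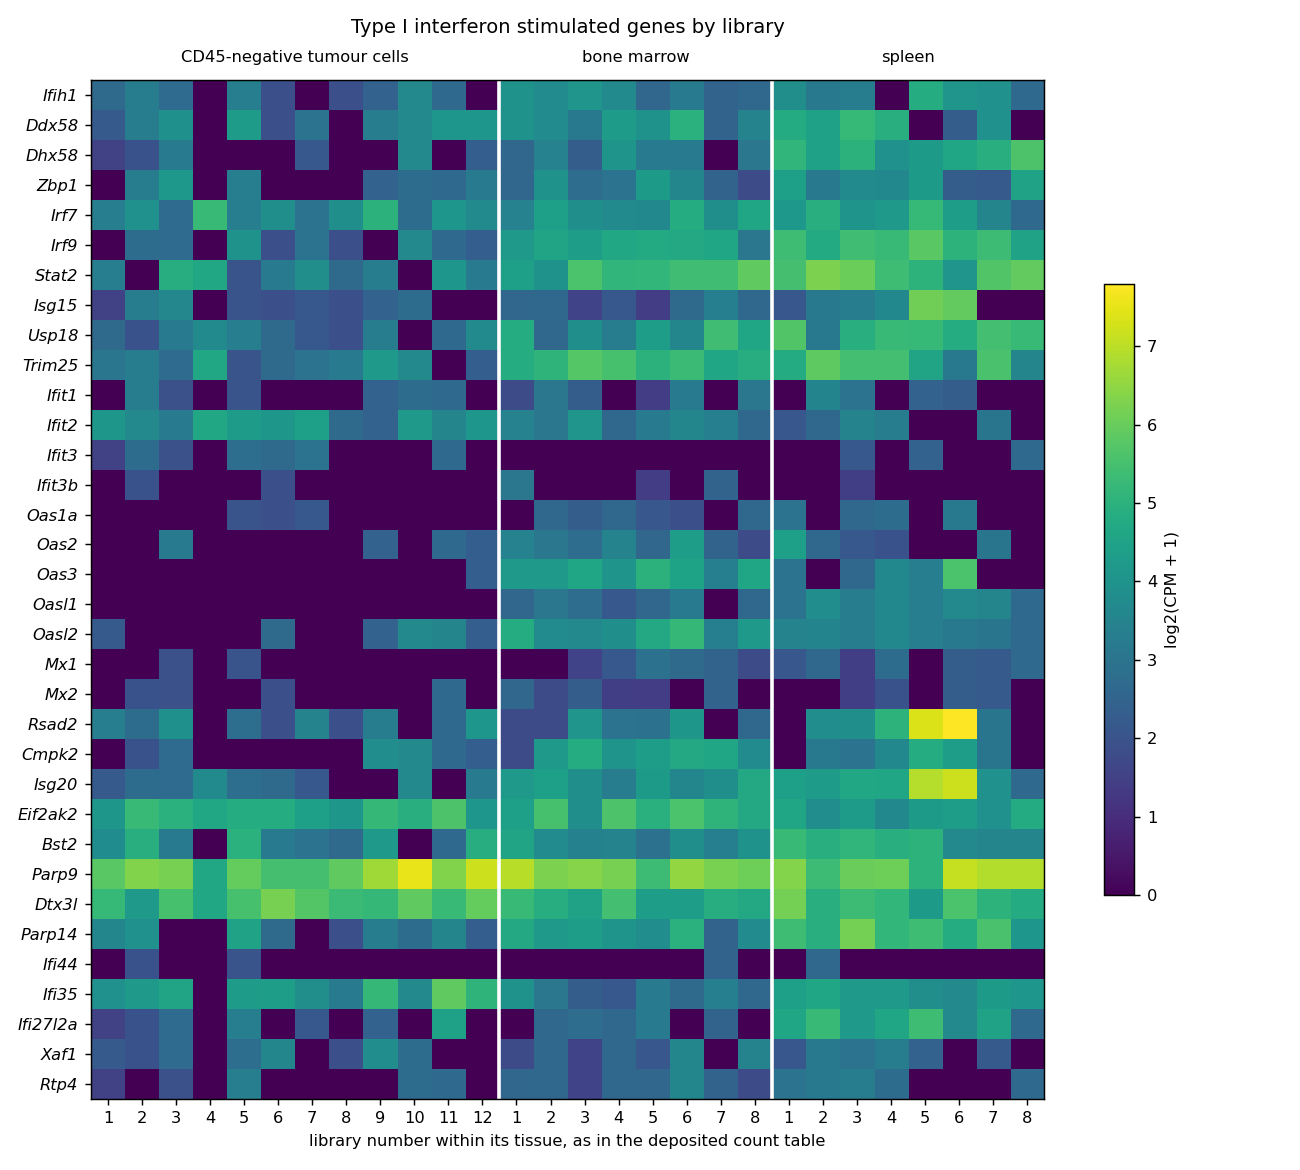
Log2(CPM + 1) of the 34 genes (rows, by role) in 12 libraries of CD45-negative tumour cells, 8 of bone marrow and 8 of spleen (columns). Parp9, Dtx3l, Eif2ak2 and Irf7 are detected in all 28 libraries, Oasl1 in no tumour cell library, and spleen libraries 5 and 6 are bright for Rsad2, Isg20 and Isg15.

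Bone marrow was compared with spleen to ask how resting levels of these genes differ between the organs of tumour-free mice. Parp14 and Usp18 fell in bone marrow, the only calls among the 6 members with enough counts to pass the filter on low genes. In a fit of every gene with a count, which reaches all 34, 9 fell, among them Ifi27l2a, Isg15, Dhx58, Isg20 and Ifi35, and 3 rose, Oas3, Oasl2 and Eif2ak2. Of all genes 12% were called lower and 8.42% higher in that fit, so 3 of 34 higher is near the share over all genes.

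With the filter, edgeR's quasi-likelihood test (16 libraries, Benjamini-Hochberg adjusted p below 0.05) called 0 of 6 members higher, beside 20.1% of 4239 genes, and 2 of 6 lower, beside 17.7%. Without spleen libraries 5 and 6, which were the lowest spleens for Stat2, 3 of 6 were called lower, with Stat2 gained. A scale taken from genes without opposite-strand coding exons moved the share of higher calls over all genes to 37.5%, against 53.2%, and the median of all genes by more than 0.1, to a log2 fold change of -0.20 against 0.04. Members passed this filter only where their counts were high enough, so these 6 do not stand for the list. Without the filter 3 of 34 were called higher, beside 8.42% of 22736 genes, and 9 of 34 lower, beside 12%. When spleen libraries 5 and 6 were also left out, 4 of 34 were called higher, beside 2167 of 22430 genes. In that fit 6 of 34 were called lower, beside 3095 of the 22430, so the number of lower calls depends on these libraries. The median log2 fold change was -0.25 over the 34 and -0.20 over all genes tested.

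Among the sensors, Dhx58, the helicase Lgp2 that tunes RNA sensing, had a lowest, median and highest level of 0, 7.93 and 15.5 CPM in bone marrow and 14.4, 26.1 and 48.5 CPM in spleen. The ranges overlapped at one end only, and the log2 fold change was -1.68 ± 0.39 (SE, n = 8 and 8, adjusted p = 0.000204, no filter). Ddx58, which encodes the RNA helicase RIG-I, ran between 4.62 and 30.3 CPM in bone marrow and 0 and 36.0 CPM in spleen (log2 fold change -0.31 ± 0.37). Ifih1, which encodes the RNA helicase MDA5, ran between 4.62 and 15.7 CPM in bone marrow and 0 and 27.1 CPM in spleen (-0.08 ± 0.46). Zbp1, a sensor of Z-form nucleic acid, ran between 2.53 and 18.2 CPM in bone marrow and 3.57 and 21.5 CPM in spleen (-0.34 ± 0.45). These 3 were not called.

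Of the signalling genes none was called over all 16 libraries. Stat2 and Irf9 are partners in the complex that binds the response element. Stat2 had 15.1, 38.03 and 58.2 CPM in bone marrow (lowest, median, highest) and 15.8, 46.9 and 76.1 CPM in spleen. Its log2 fold change was -0.43 ± 0.27 (filtered fit, adjusted p = 0.229), and without spleen libraries 5 and 6 it was called lower (-0.64 ± 0.25, adjusted p = 0.0376). Those libraries held its lowest spleen values, 31.6 and 15.8 CPM, against 40.4 CPM or more in the others. Leaving them out therefore raised the spleen level of Stat2. With the same libraries left out and no filter, none of the 3 signalling genes was called. Irf9 had 7.59, 22.9 and 26.5 CPM in bone marrow and 21.5, 38.4 and 54.2 CPM in spleen, with an adjusted p of 0.0682 in edgeR's quasi-likelihood test without a filter. Irf7, the factor that amplifies interferon production, had 9.94, 13.8 and 27.6 CPM in bone marrow and 5.38, 17.1 and 36.1 CPM in spleen.

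Isg15 is a ubiquitin-like modifier, Usp18 the protease that removes it and damps the receptor, and Trim25 a ligase that acts on RIG-I. Usp18 had 5.03, 16.8 and 41.6 CPM in bone marrow and 7.87, 36.8 and 50.6 CPM in spleen, with a log2 fold change of -0.91 ± 0.35 (SE, filtered fit, adjusted p = 0.0418). Its ranges overlapped over most of their length. Isg15 had 1.65, 5.0 and 9.24 CPM in bone marrow and 0, 8.23 and 67.7 CPM in spleen, and its log2 fold change of -2.04 ± 0.48 was called without a filter (adjusted p = 0.000334). Without spleen libraries 5 and 6 it was -0.53 and not called (adjusted p = 0.534). Trim25 had 23.1, 32.0 and 52.9 CPM in bone marrow and 7.89, 34.96 and 57.7 CPM in spleen and was not called (0.06 ± 0.29, filtered fit).

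The effectors split. Oas3, an enzyme that makes the activator of RNase L, had 9.24, 19.8 and 31.4 CPM in bone marrow and 0, 5.95 and 47.3 CPM in spleen, where 7 of 8 libraries had at most 11.5 CPM and library 6 had 47.3 (log2 fold change 1.14 ± 0.41, adjusted p = 0.0278, no filter). Oasl2, a related protein, had 9.24, 15.7 and 35.8 CPM in bone marrow and 5.38, 8.80 and 11.5 CPM in spleen (1.11 ± 0.41, adjusted p = 0.0377). Eif2ak2, which encodes the RNA-activated kinase PKR, had 13.7, 31.0 and 48.1 CPM in bone marrow and 11.5, 18.5 and 26.9 CPM in spleen (0.90 ± 0.34, adjusted p = 0.0407), a call that was lost with DESeq2 size factors (0.83, adjusted p = 0.0555). Each of the 3 has spleen libraries that reach into the bone marrow range.

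Isg20, an exonuclease that degrades RNA, had 8.59, 15.6 and 25.3 CPM in bone marrow and 5.38, 21.7 and 146 CPM in spleen (-1.46 ± 0.36, adjusted p = 0.000904). Without spleen libraries 5 and 6 its log2 fold change was -0.22 with an adjusted p of 0.689. Bst2, the tetherin that holds budding virus at the cell surface, had 6.61, 11.4 and 22.4 CPM in bone marrow and 10.7, 28.8 and 37.1 CPM in spleen (-0.99 ± 0.36, adjusted p = 0.0364). Ifit3, a partner of Ifit1, which binds foreign RNA, was called lower with 0 counts over 8 bone marrow libraries and 4 counts over 8 spleens. With 3 counts over the group, the limit that a count of 0 allows, in place of the 0, this is 1.82-fold lower. The exact Poisson 95% interval of the ratio reached 1.11 and covers counting error only. Ifit3 and Ifit3b are near-identical copies whose reads the counting could split. Ifit3b ran the other way, with 5 counts in bone marrow and 1 in spleen. How reads were split between the copies was not tested. Ifit3 lost its call without spleen libraries 5 and 6 (adjusted p = 0.0610).

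Rsad2, which encodes viperin, an enzyme that makes a chain-terminating nucleotide, had 0, 5.84 and 16.5 CPM in bone marrow and 0, 13.4 and 221 CPM in spleen. Its fold change was large but not called (-2.81 ± 1.01, adjusted p = 0.0678), and 2 of the 8 spleens held 37 and 56 counts while the others held at most 11. Cmpk2, its neighbour on chromosome 12, had 2.49, 18.7 and 27.4 CPM in bone marrow and 0, 7.51 and 27.1 CPM in spleen (0.90 ± 0.41, adjusted p = 0.112), and was called higher without spleen libraries 5 and 6 (1.5, adjusted p = 0.00717). The other effectors, Ifit1, Ifit2, Ifit3b, Oas1a, Oas2, Oasl1, Mx1 and Mx2, were not called. They had at most 31 counts over either organ's 8 libraries, so a difference was hard to detect at such counts.

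Parp14, an ADP-ribosyltransferase, had 4.62, 16.5 and 30.3 CPM in bone marrow and 16.2, 37.6 and 70.4 CPM in spleen (-1.16 ± 0.29, adjusted p = 0.00229, filtered fit). Parp9 and Dtx3l, whose products form a ubiquitin ligase complex, had -0.06 ± 0.29 and -0.43 ± 0.26 and were not called. With the scale from genes without opposite-strand coding exons, Dtx3l was called lower (-0.66 ± 0.26, adjusted p = 0.0494). Ifi27l2a, a small interferon-induced protein, had 0, 4.82 and 8.27 CPM in bone marrow and 5.38, 22.3 and 40.6 CPM in spleen (-2.39 ± 0.46, adjusted p = 2.93e-06, no filter). Only the lowest spleen library lay within the bone marrow range. Ifi35, an interferon-induced leucine zipper protein, had 3.44, 6.53 and 14.9 CPM in bone marrow and 11.8, 17.2 and 23.6 CPM in spleen (-1.25 ± 0.43, adjusted p = 0.0239). Ifi44, Xaf1 and Rtp4 had at most 17 counts per organ and were not called.

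**Figure D2:**
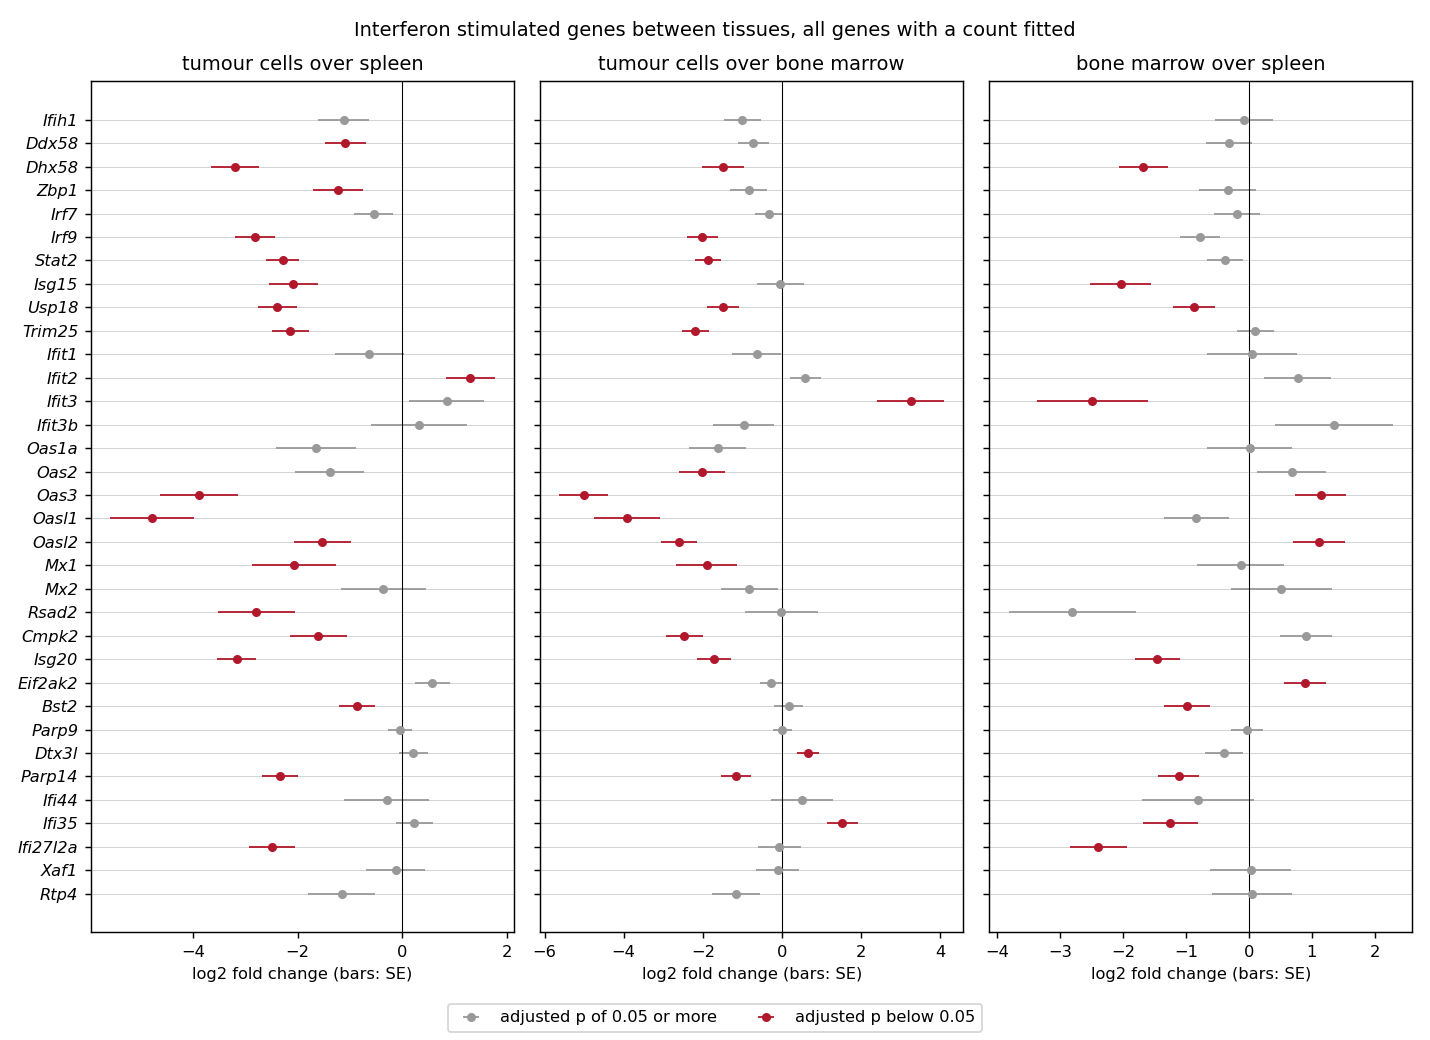
Log2 fold change with its SE (edgeR, every gene with a count fitted) for the 34 genes in tumour cells over spleen, tumour cells over bone marrow and bone marrow over spleen. Red points have an adjusted p below 0.05: 19 in tumour cells over spleen, 16 in tumour cells over bone marrow and 12 in bone marrow over spleen.

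CD45-negative tumour cells were set against spleen after the count columns had been seen, because the planned comparison with lymph nodes of tumour-bearing mice could not be made. Tissue, sort, tumour and day change together in it and cannot be told apart. Stat2, Irf9, Trim25, Usp18, Dhx58 and 3 of the 5 oligoadenylate synthetase genes (Oas3, Oasl1 and Oasl2) fell in tumour cells, while Ifit2 rose. Parp9, Dtx3l and Ifi35 were not called. In the filtered fit of 28 libraries, 1 of 5 members was called higher, beside 33.4% of 5143 genes, and 2 of 5 lower, beside 34.6%. Members passed this filter through the groups where their counts were high, bone marrow included. With only tumour cells and spleen fitted, just Parp9 and Dtx3l passed it, and neither was called. Without the filter 1 of 34 was called higher, beside 12.3% of 24548 genes, and 18 of 34 lower, beside 21.8%. The median log2 fold change was -1.30 over the 34 and -0.22 over all genes. With DESeq2 size factors and the filter, the median of all genes was -0.19, against 0.01 with TMM.

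All 3 signalling genes had counts in tumour cells. Stat2 had 0, 8.56 and 27.9 CPM in tumour cells (lowest, median, highest) against the spleen values above, a log2 fold change of -2.14 ± 0.35 (SE, n = 12 and 8, adjusted p = 9.87e-07, filtered fit). Irf9 had 0, 4.67 and 15.2 CPM in tumour cells, all below the lowest spleen at 21.5 CPM (-2.82 ± 0.38, adjusted p = 3.99e-12, no filter). Irf7 had 5.58, 12.95 and 37.1 CPM in tumour cells and was not called (-0.55 ± 0.37).

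Dhx58 had 0, 0.908 and 11.6 CPM in tumour cells, all below the lowest spleen at 14.4 CPM (-3.21 ± 0.46, adjusted p = 4.15e-11). Ddx58 had 0, 8.77 and 18.2 CPM in tumour cells (-1.09 ± 0.39, adjusted p = 0.0174) and Zbp1 0, 4.86 and 16.7 CPM (-1.22 ± 0.48, adjusted p = 0.0338), with ranges that overlapped spleen. Ifih1 had 0, 4.86 and 11.6 CPM and was not called (-1.12 ± 0.49, adjusted p = 0.0615). Trim25 had 0, 7.02 and 24.7 CPM (-2.0 ± 0.34, adjusted p = 2.48e-06, filtered fit). Usp18 had 0, 5.48 and 12.4 CPM (-2.39 ± 0.38, adjusted p = 3.79e-09, no filter).

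Oasl1 had 0 counts in all 12 tumour cell libraries and 25 counts over the 8 spleens. With 3 counts over the group in place of the 0 this is 11.5-fold lower, and the exact Poisson 95% interval of the ratio reached 0.115. Oas3 had 1 count over the 12 tumour cell libraries and 23 over the 8 spleens, of which 12 were in library 6. The ratio of Oas3 was 0.0315 (exact Poisson 95% interval 0.000764 to 0.194), and its adjusted p was 1.31e-06. Oasl2, Mx1, Cmpk2, Isg15, Isg20, Rsad2 and Bst2 were also called lower, with log2 fold changes between -3.17 for Isg20 and -0.86 for Bst2. Ifit2, which encodes an RNA-binding protein of the Ifit family, was the 1 gene called higher, with 4.42, 16.2 and 24.7 CPM in tumour cells and 0, 4.31 and 10.3 CPM in spleen (1.31 ± 0.47, adjusted p = 0.0181). Without spleen libraries 5 and 6 its call was lost (1.0, adjusted p = 0.0831), as were those of Rsad2 (-0.71, adjusted p = 0.237), Isg15 (-0.58, adjusted p = 0.454) and Cmpk2 (-1.01, adjusted p = 0.204), while Oas2 was gained (-1.69, adjusted p = 0.0352). Zbp1 and Bst2 lost theirs when the scale was taken from genes without opposite-strand coding exons (adjusted p = 0.0569 and 0.0756).

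Eif2ak2 had 16.1, 27.5 and 47.7 CPM in tumour cells and 11.5, 18.5 and 26.9 CPM in spleen, and was called higher with the filter (0.73 ± 0.29, adjusted p = 0.0251) but not without it (0.58 ± 0.33, adjusted p = 0.169). The filtered call was also lost without tumour library 4, the one with the fewest counts (0.58, adjusted p = 0.0773), without spleen libraries 5 and 6 (0.61, adjusted p = 0.0918) and with DESeq2 size factors (0.53, adjusted p = 0.108). Parp9 had 24.7, 66.6 and 186 CPM in tumour cells and 31.6, 73.7 and 138 CPM in spleen (0.10 ± 0.28). Dtx3l had 17.4, 41.7 and 71.8 CPM in tumour cells and 18.1, 33.4 and 70.9 CPM in spleen (0.37 ± 0.24). Parp14 had 0, 5.67 and 21.3 CPM in tumour cells (-2.34 ± 0.35, adjusted p = 2.89e-10). Ifi27l2a had 0, 2.36 and 21.2 CPM (-2.49 ± 0.45, adjusted p = 2.27e-07), and Ifi35 had 0, 17.8 and 58.3 CPM (0.24 ± 0.35). The highest tumour values of Ifi27l2a and of Ifi35 were in library 11, where 7 stroma and endothelium markers summed to 456 CPM, against a range of 17.5 to 1812 CPM over the 12. The part of stroma in these values was not tested.

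Tumour cells against bone marrow, likewise added after the columns were seen and confounded in the same way, had its lowest fitted log2 fold change among the 34 in Oas3, while Dtx3l, Ifi35 and Ifit3 rose. In the filtered fit 1 of 5 members was called higher, beside 34.2%, and 2 of 5 lower, beside 35.9% of 5143 genes. With only tumour cells and bone marrow fitted, 4 members passed the filter, Trim25 no longer among them, and 1 was called higher (Dtx3l) and 1 lower (Stat2). Without the filter 3 of 34 were called higher, beside 15.3%, and 13 of 34 lower, beside 19.8% of 24548 genes. The median log2 fold change was -0.91 over the 34 and 0 over all genes.

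Oas3 had 1 count over 12 tumour cell libraries and 73 over 8 bone marrows, a ratio of 0.0135 (exact Poisson 95% interval 0.000338 to 0.0777), and every bone marrow library lay above every tumour cell library. Oasl2 had 0, 1.82 and 11.6 CPM in tumour cells against 9.24, 15.7 and 35.8 CPM in bone marrow (-2.60 ± 0.46, adjusted p = 1.14e-07). Oasl1 had 0 counts against 18, 6.08-fold lower with 3 counts in place of the 0 (exact Poisson 95% interval of the ratio up to 0.224). Oas2 was called lower (-2.02 ± 0.58, adjusted p = 0.00223) and Oas1a was not (-1.63 ± 0.73, adjusted p = 0.0662). Oas1a has near-identical copies.

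Stat2 and Trim25 were called lower with the filter (-1.74 ± 0.35 and -2.08 ± 0.33, adjusted p = 3.13e-05 and 4.73e-07), and Irf9, Cmpk2, Isg20, Usp18, Dhx58, Mx1 and Parp14 without it, between -2.47 for Cmpk2 and -1.17 for Parp14. Dtx3l was called higher (0.78 ± 0.24, adjusted p = 0.00427, filtered fit), with 17.4, 41.7 and 71.8 CPM in tumour cells and 19.3, 26.5 and 42.9 CPM in bone marrow. It is of the genes with opposite-strand coding exons, whose median log2 fold change in this fit was 0.22, against -0.25 for genes without them. With DESeq2 size factors its call held with the filter and was lost without it. Ifi35 was higher without the filter (1.52 ± 0.38, adjusted p = 0.000382), with 17.8 CPM as the median of tumour cells and 6.53 as that of bone marrow. It shares 290 exonic bases with the opposite-strand gene Gm11626, which had 362 counts in tumour cells and 549 in bone marrow. Ifit3 had 11 counts in 7 of 12 tumour cell libraries and 0 in bone marrow. With 3 counts over the group in place of the 0 this is 3.62-fold higher, and the exact Poisson 95% interval of the ratio started at 2.48. Isg15, Rsad2, Bst2 and Parp9 had log2 fold changes between -0.05 and 0.16 and were not called.

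**Figure D3:**
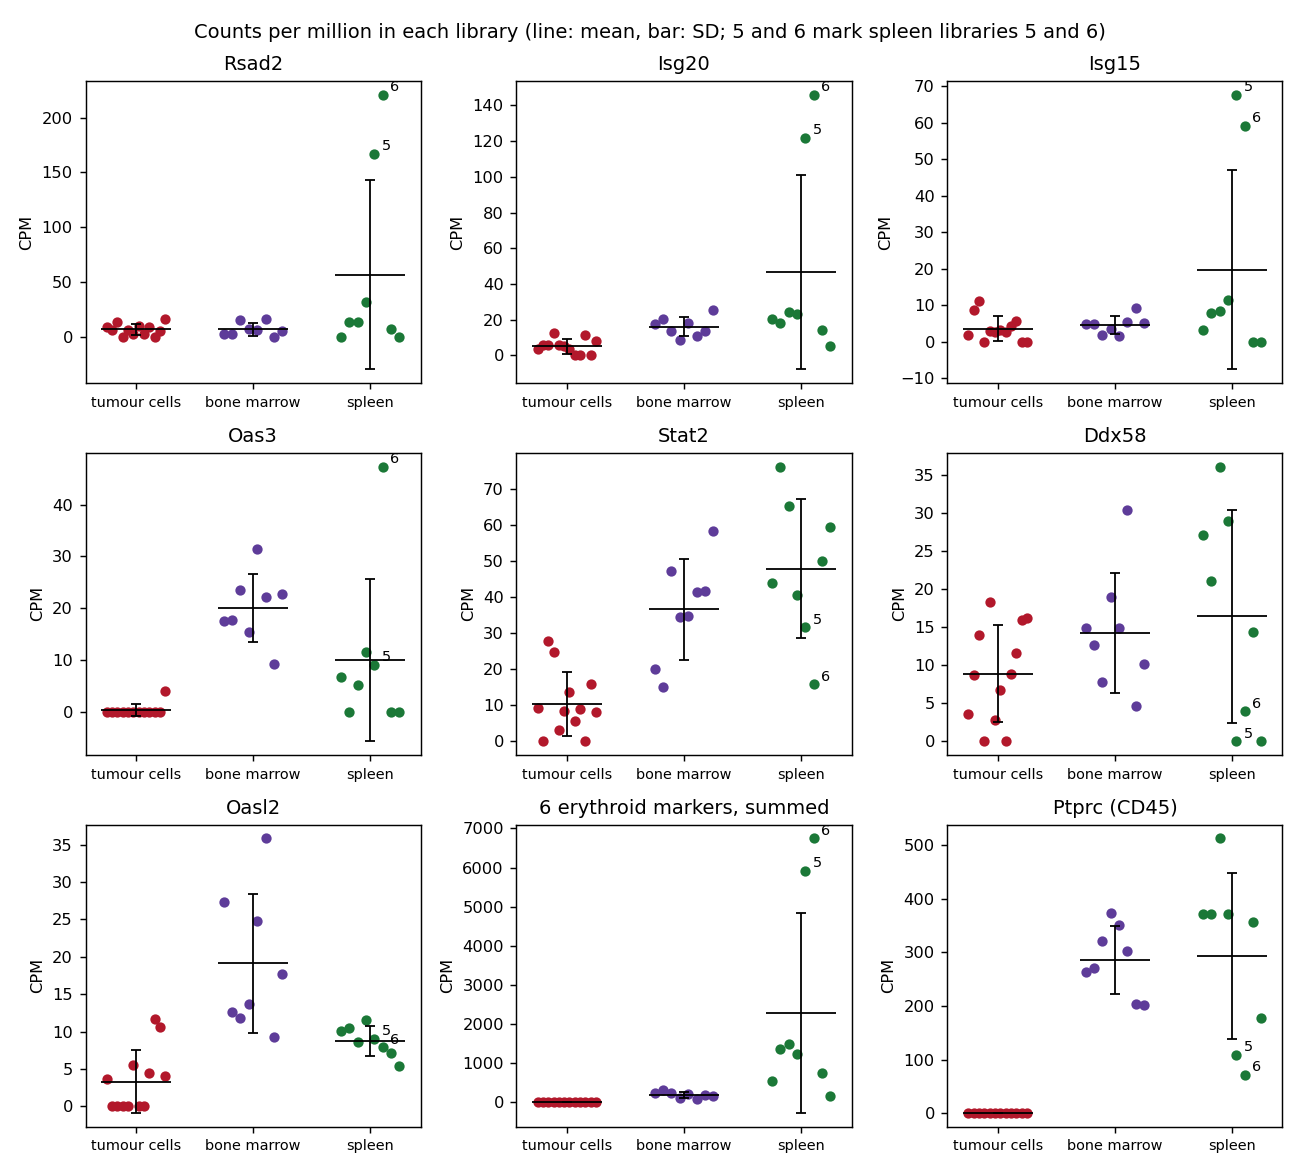
CPM of 7 of the genes, of 6 erythroid markers summed and of Ptprc in every library of CD45-negative tumour cells, bone marrow and spleen (points; line, mean; bar, SD), with spleen libraries 5 and 6 numbered. These 2 spleens are highest for Rsad2, Isg20, Isg15 and the erythroid sum and lowest for Ptprc.

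Within spleen, some of these genes were spread widely between libraries. Rsad2 had 167 and 221 CPM (37 and 56 counts) in spleen libraries 5 and 6, and 0, 0, 7.14, 13.1, 13.7 and 31.7 CPM in the other 6. Isg20 had 122 and 146 CPM in those libraries and 5.38 to 24.03 CPM in the others, and Isg15 had 67.7 and 59.2 CPM against 0 to 11.5 CPM. With Ifih1 and Cmpk2, 5 of the 34 genes lay above every other spleen in both libraries. Ifih1 did so in CPM only, with 6 and 4 counts there and 0 to 5 counts in the other spleens. Stat2 (31.6 and 15.8 CPM, against 40.4 to 76.1 CPM) and Ifi35 lay below every other spleen, and 27 genes did neither. The share of all genes that lay above or below in this way was not computed, so these counts describe the 34 genes only. The same libraries had the highest erythroid sums, the highest monocyte and neutrophil sums and the lowest Ptprc levels, and their genotype cannot be read from the columns. The part of these markers in these values was not tested.

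The ligands themselves were close to undetected. Of 18 type I interferon genes, 3 had a count in the fitted libraries and their sum was at most 8.07 CPM in tumour cells, 2.53 in bone marrow and 5.38 in spleen. None was called in any comparison, at such low counts. The receptor subunit gene Ifnar1 had a median of 18.1 CPM in tumour cells, 26.6 in bone marrow and 21.7 in spleen.

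Of 13 receptor and signalling genes, 1 rose and 10 fell in tumour cells over spleen, beside 12.3% and 21.8% of all genes. In tumour cells over bone marrow 1 rose and 6 fell, beside 15.3% and 19.8%. With spleen libraries 5 and 6 left out, 1 rose and 9 fell over spleen. The smallest p-values belonged to Ptpn6, a phosphatase of leukocytes, Irf8, a factor of myeloid and B cells, and Jak1. Ptpn6 had a log2 fold change of -4.02 over spleen and -3.93 over bone marrow, and Jak1 had -1.80 and -1.56. Irf8 had 2 counts in tumour cells, against 239 in spleen (ratio 0.00606, exact Poisson 95% interval 0.00073 to 0.0221) and 252 in bone marrow (ratio 0.00783, interval 0.000943 to 0.0286).

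Of 18 measured genes of nucleic acid sensing, 2 rose and 2 fell in bone marrow over spleen, near the 8.42% and 12% of all genes. In tumour cells 0 rose and 10 fell over spleen, beside 12.3% and 21.8% of all genes. Over bone marrow 1 rose and 11 fell in tumour cells, beside 15.3% and 19.8%. When spleen libraries 5 and 6 were left out, 2 rose and 4 fell in bone marrow over spleen, and 1 rose and 10 fell in tumour cells over spleen. Tlr3, which senses double-stranded RNA, had 0 counts in bone marrow and 17 in spleen. With 3 counts over the group in place of the 0 this is 7.72-fold lower, and the exact Poisson 95% interval of the ratio reached 0.178. Sting1, which relays cytosolic DNA sensing, had a log2 fold change of -1.19 ± 0.32 in bone marrow over spleen, whereas the adaptor Myd88 had 1.13 ± 0.35. Of 44 further interferon-induced genes tested in bone marrow over spleen, 7 rose and 9 fell, led by Slfn4 (5.42 ± 0.36), Slfn1 (2.10 ± 0.34) and Epsti1 (-1.55 ± 0.31). Of 45 tested in tumour cells, 2 rose and 32 fell over spleen and 5 rose and 31 fell over bone marrow. Leaving out spleen libraries 5 and 6, 6 rose and 11 fell in bone marrow over spleen, and 2 rose and 31 fell in tumour cells over spleen. The median log2 fold change of these further genes was -2.19 over spleen and -2.17 over bone marrow. The background shares without a filter stand above.

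Knockout and wild-type tumour cells were compared by the authors, and the deposited table of that comparison gives the genotype contrast for these genes. The authors' deposited table lists 21 of the 34 genes. By the authors' deposited table none of them had an adjusted p under 0.05, beside 0.644% of its 11340 genes. The lowest adjusted p among them was 0.166, for Parp9 (log2 fold change 0.69, p = 0.0105). Parp9 was the 1 gene of the 21 (4.76%) with an unadjusted p below 0.05 in the authors' deposited table, against 16.8% of all its genes. By count, 7 were positive and 14 negative in the authors' deposited table, and the median was -0.14, beside -0.14 over all genes and -0.31 over the 7951 genes without opposite-strand coding exons, the class of all listed members but Parp9 and Dtx3l. The largest negative values there were Parp14 (-1.04, adjusted p = 0.418), Ifit3 (-0.89, adjusted p = 0.628) and Isg15 (-0.83, adjusted p = 0.617). The sources used here do not state which genotype was subtracted, and the value of Qpctl in the authors' deposited table (0.69, adjusted p = 0.494) did not settle it. The other 13 genes are not in that table, and no own test by genotype was made.

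**Figure D4:**
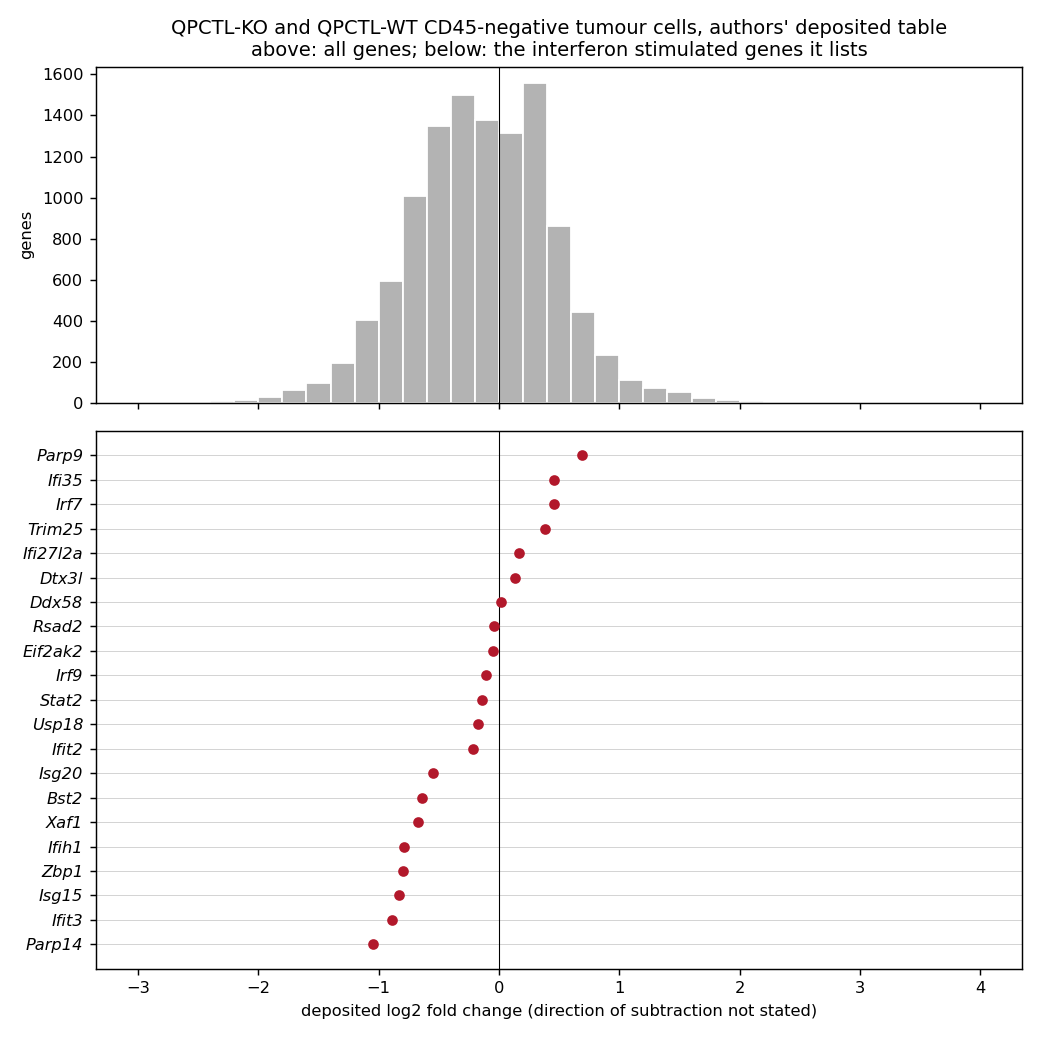
Log2 fold change between QPCTL-KO and QPCTL-WT CD45-negative tumour cells in the authors' deposited table, as a histogram of all genes (above) and for the 21 listed interferon stimulated genes (below), with the direction of subtraction not stated. The 21 genes lie between -1.04 and 0.69 within the bulk of all genes.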

How the data were processed

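Per the labels' protocols, poly(A) RNA went through a stranded TruSeq preparation and was read from both ends over 50 bases. HISAT2 and edgeR are the tools, and GRCm38 and mm10 the builds, that stand in the submitters' processing notes. For the counting program, its strand setting and the annotation, the answer is not given in the sources used here. The deposited count table holds whole-number counts per gene, not normalized. The authors' deposited table holds a log2 fold change and mean log2 CPM, an F score and p-values with their adjusted values, for tumour cells.

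Of the 48 count columns, 28 matched a tissue group by name and 20 lymph node columns were left aside throughout. The 4 planned comparisons with lymph node were not run, and bone marrow against spleen was fitted on these organs' 16 libraries, without the lymph nodes planned for the same fit. The 2 comparisons of tumour cells were added after seeing the columns, fitted on all 28 libraries. Counts were tested with edgeR 4.0.16 (R 4.3.3): TMM factors, filterByExpr by group, quasi-likelihood F-test, Benjamini-Hochberg adjustment over all genes tested, called below 0.05, two-sided. Because few members pass that filter, a fit of all genes with a count is given too. The SE is the absolute log2 fold change over the root of F. Levels are CPM on TMM-scaled totals. The fits were tested on simulated data.

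Overlaps came from GENCODE M21 on GRCm38. Intervals are exact and cover counting error only. Alternatives were DESeq2 1.42.0, its size factors, other scales, gene subsets and a test against a log2 fold of 1. The genes named are the 34 members and at most 3 per pathway list, by smallest p. Ifnar1 is given beside these as a receptor subunit gene, not for its p-value. The result of the receptor and signalling list in bone marrow over spleen is not reported here. The members, lists and markers were chosen with earlier results of these data known. P-values measure only the spread between these samples. Organs of the same mouse could not be paired.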

Additional observations from a re-analysis of the deposited data

Results flagged for a closer look

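Each library's CPM was checked for a sample far from the rest of its group (Dixon's criterion, in 67 sets of 8 bone marrow or 8 spleen libraries, the 12 tumour cell libraries not being tested), and 7 values stood out. Chance gives about 1 in 20 for continuous values, a rate that does not hold for counts this low. The Ifit3b value and both Ifi44 values are from genes with a count in a single library of the group, which meet the criterion by construction. In spleen, Oas3 had 47.3 CPM (12 counts) in library 6 against 11.5 in the next, Oas2 had 20.3 CPM (6 counts) in library 1 against 7.14, Ifi44 had 5.25 CPM (2 counts) in library 2 against 0, and Ifit3b had 1.72 CPM (1 count) in library 3 against 0. In bone marrow, Oas2 had 19.3 CPM (7 counts) in library 6 against 10.3, Rtp4 had 11.02 CPM (4 counts) in the same library against 5.15, and Ifi44 had 4.62 CPM (1 count) in library 7 against 0.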

How the results depend on the processing

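No paired analysis was possible because the column numbers cannot be tied to the numbers in the sample titles. For bone marrow over spleen, 2 members were called with the filter on low counts, 12 without it, 0 against a log2 fold of 1 and 1 in a fit of all 28 libraries, and over all genes 1599, 4649 without the filter, 853 among coding genes without opposite-strand coding exons and 487 against a log2 fold of 1. For tumour cells over spleen, 3 members were called with the filter, 19 without it and 0 when only these groups were fitted, which left 2 members tested, and over all genes 3494, 8361, 1780 and 1759 in the same order of settings. For tumour cells over bone marrow, 3 and 16 members, and 3604, 8617, 1858 and 1928 genes. More genes or fewer genes tested, by construction, goes with these filter and subset settings; for the other changes the cause was not tested. Without the filter, leaving out spleen libraries 5 and 6 gave 10 members called in bone marrow over spleen and 16 in tumour cells over spleen. Eif2ak2 lost its filtered call in tumour cells over spleen under every other setting that fitted it. Without the tumour library of fewest counts no call among the 34 changed in either unfiltered comparison. DESeq2 size factors without the filter changed 2 calls (Irf9 gained, Eif2ak2 lost) in bone marrow over spleen, 1 (Ifih1 gained) in tumour cells over spleen and 1 (Dtx3l lost) over bone marrow. No called member changed direction under these alternatives. The authors' deposited table called 0 members at an adjusted p below 0.1 as well. Low counts limit these results: 23 of 34 members had under 20 counts in every library, so a call not made is not an absence of difference.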
